A study of Mus musculus with 15 samples.

Results

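Transcripts of the IL-4 and IL-13 system were followed in conjunctival tissue of mice with experimental allergic conjunctivitis. The 10 genes were chosen by symbol, without use of their values: the ligands *Il4* and *Il13*, the receptor chains *Il4ra*, *Il13ra1*, *Il13ra2* and *Il2rg*, the transcription factor *Stat6*, and the feedback inhibitors *Socs1*, *Socs3* and *Cish*. They are 10 of the 55487 genes listed, and all 10 were among the 19006 genes tested. The mice were wild type and labelled BALC/c, a spelling of the labels for what the study's methods call BALB/c females aged 9 to 12 weeks. In all 3 groups the skin was first sensitized with ovalbumin (OVA) and MC903, a vitamin D analog that provokes atopic skin inflammation, at 2.5 nmol of MC903 per day over 7 days. After a rest period, eye drops were given for another 7 days. The PBS group (5 libraries) received PBS drops and its antibody label is N/A. The isotype group (5 libraries) received drops with 250 μg of OVA and an isotype control antibody. The anti–IL-4Rα group (5 libraries) received the same OVA drops and an antibody against IL-4Rα, with both antibodies at 25 mg/kg. By the study's methods, the antibody injections began during the rest period, before the first drops. No group lacked skin sensitization, so the PBS group is a sensitized control, and the effect of OVA drops cannot be told apart from that of an injected isotype antibody in the comparison of the isotype group with the PBS group.

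IL-4 and IL-13 are the cytokines that define type 2 immunity. IL-4 signals through IL-4Rα paired with the common γ chain (*Il2rg*) on leukocytes, and both IL-4 and IL-13 signal through IL-4Rα paired with IL-13Rα1 on epithelial, stromal and myeloid cells. Either receptor activates Janus kinases and then STAT6, which enters the nucleus and switches on target genes. IL-13Rα2 binds IL-13 with high affinity and is best known as a decoy, and proteins of the SOCS family, induced by cytokine signaling, shut the receptors down. The antibody acts on the IL-4Rα protein, so that the level of *Il4ra* mRNA is a readout and not a measure of how well the receptor was blocked.

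In the isotype group *Il4*, *Il13*, *Il4ra*, *Il2rg*, *Socs1* and *Socs3* were higher than in the PBS group, and *Il13ra2* was lower. Under anti–IL-4Rα, *Il4ra*, *Il13ra1*, *Il13ra2*, *Socs1*, *Socs3* and *Cish* were lower than with isotype, whereas neither ligand passed the test. *Il13ra2* was lower in the isotype group than in the PBS group and lower again in the anti–IL-4Rα group. Calls rest on edgeR's quasi-likelihood test at an adjusted p under 0.05 over all genes tested, and levels are counts per 1000000 counts of a library (CPM). Changes of single genes are log2 fold changes from the same fit.

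Libraries held 48622246 to 87745024 counts. Isotype replicate 2 and anti–IL-4Rα replicate 3 were the least like their own groups. Their median Spearman correlations with their group across genes were 0.971 and 0.98, against 0.985 to 0.991 for the other libraries. Calls of the 10 genes are given with and without this pair. The *Il13ra2* share was not tested without the pair, and the lists of other genes are given with all libraries. The study's methods report 2 outliers without naming them, so whether they are this pair is not known. The main calls here keep every library. Of the tissue's own cells, all 9 markers of conjunctival epithelium were detected and summed to 10090 to 17340 CPM per library. Lacrimal gland markers varied widely, from 136 to 11030 CPM in sum, and 4 of the 5 anti–IL-4Rα libraries had a mean log2 level of these markers (8.83 to 10.2) above every library of the other groups. In tissue RNA, fewer cells of a type and less RNA per cell cannot be told apart.

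STAT proteins bind palindromic sites made of TTC and GAA, 3 bases apart for most STATs and 4 bases apart for a spacing favored by STAT6. The 250 bases before the start of each member gene (RefSeq, GRCm38.p6) were searched for TTCNNNGAA and TTCNNNNGAA, each of which reads the same on both strands and neither of which can match the same bases as the other. All 10 members had a promoter in the table (11 starts, since *Il4* has 2), and 2 of the 10 held a match. The windows of 30 bases around these matches are shown because *Il4* and *Socs3* both rose after OVA challenge. Capitals mark the match.
Il4 (chr11:53618813-53618842, minus strand): ttggtctgatTTCACAGGAAaatttacctg
Socs3 (chr11:117969501-117969530, minus strand): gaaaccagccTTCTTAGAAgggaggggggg
The *Il4* match has the 4-base spacing and lies 167 to 158 bases before the start, outside any annotated gene. The *Socs3* match has the 3-base spacing and lies 154 to 146 bases before the start, within the *Socs3* gene as GENCODE draws it but in none of its exons. Of 32536 promoters of the same length, 7.04% held TTCNNNGAA, 5.89% held TTCNNNNGAA and 12.5% held either. A match of letters is a description and shows no binding, and the other promoters lack these letters only in this window.

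Compared per kb of exon, the receptor and signaling transcripts lay far above the ligands. In the PBS group *Stat6* was highest at 33.4 ± 1.18 CPM per kb (SD, n = 5), followed by *Il13ra1* at 22.0 ± 2.66. *Socs3* (11.8) and *Il4ra* (10.7) followed with overlapping libraries, then *Cish* (6.67), and *Il2rg* (4.88) and *Il13ra2* (3.66), which again overlapped. *Socs1* stood at 2.34, *Il13* at 0.286 and *Il4* at 0.0815 CPM per kb. The first 4 places were taken by the same genes in the isotype group, where *Stat6* reached 35.3 and *Il4* 0.278, and in the anti–IL-4Rα group, where they reached 32.5 and 0.202. *Il13ra2* moved from the seventh place in the PBS group to the eighth in both OVA-challenged groups, behind *Socs1*, whose libraries overlapped with those of *Il13ra2* in the isotype group.

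**Figure D1:**
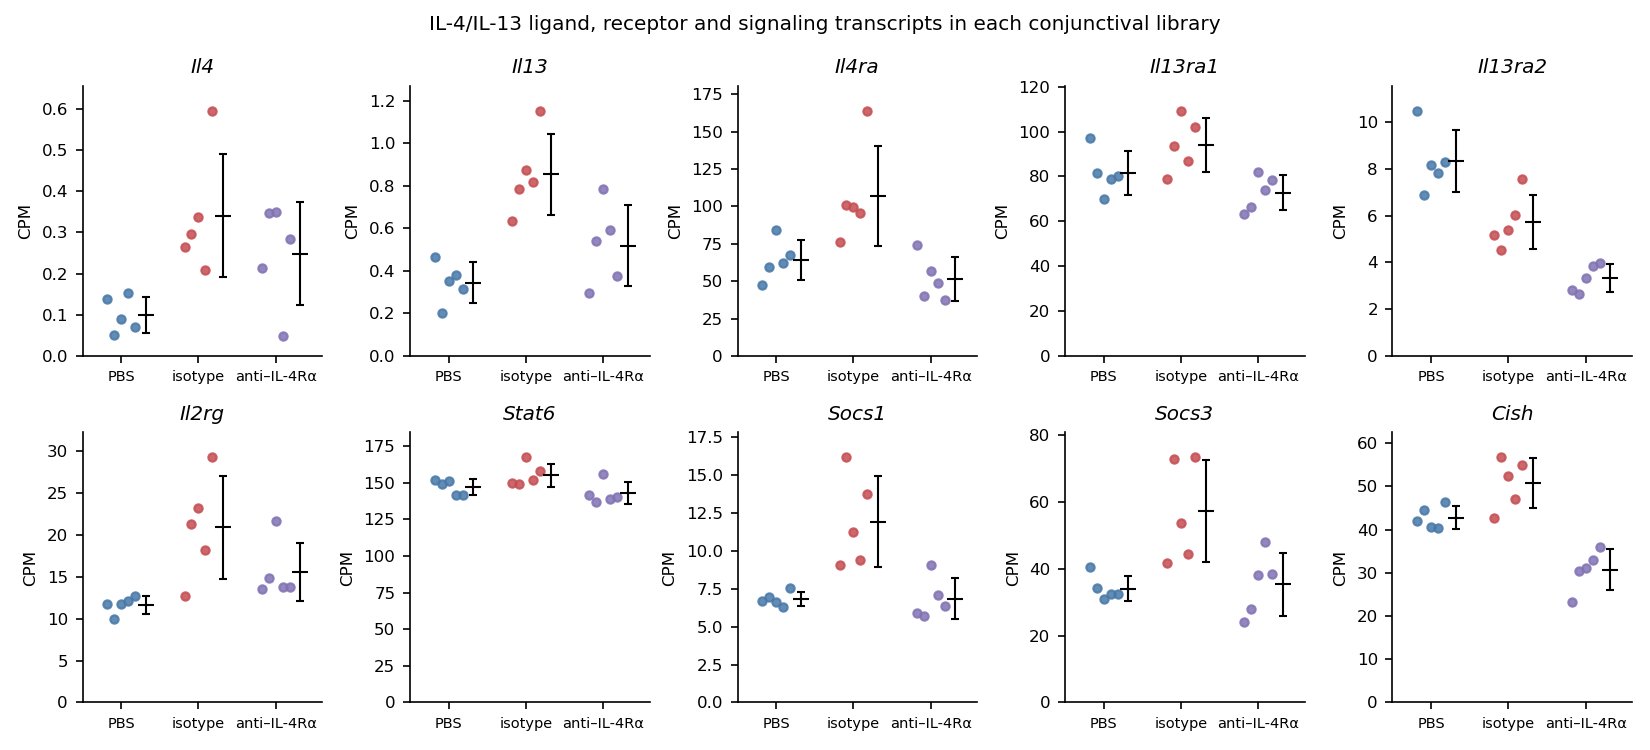
Level of each of the 10 transcripts in CPM (vertical axes, linear from 0, a scale for each gene), with 1 point per library in the PBS, isotype and anti–IL-4Rα groups and the group mean ± SD beside the points (n = 5). The *Il13ra2* points step down from group to group, the *Stat6* points stay within 137 to 168 CPM, and 1 isotype library stands at 164 CPM for *Il4ra*.

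*Il4* (ENSMUSG00000000869, chromosome 11, 53602982 to 53618669, minus strand) and *Il13* (ENSMUSG00000020383, chromosome 11, 53631324 to 53634702, minus strand) are neighbors in the type 2 cytokine locus. *Il4* is made by Th2 cells, basophils and mast cells, and was measured at 3 to 10 counts per PBS library, so that its levels carry a large counting error. It stood at 0.137, 0.0509, 0.0884, 0.153 and 0.0703 CPM in the PBS libraries, at 0.265, 0.297, 0.337, 0.210 and 0.596 CPM in the isotype libraries, and at 0.213, 0.347, 0.350, 0.0494 and 0.283 CPM in the anti–IL-4Rα libraries. The isotype libraries lay above the whole PBS range, as did 4 of the 5 anti–IL-4Rα libraries, while anti–IL-4Rα replicate 4 lay below every PBS library. *Il4* rose by 1.74 in the isotype group (SE 0.43, adjusted p = 0.0165) and differed by -0.41 with anti–IL-4Rα (SE 0.39, adjusted p = 0.485).

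*Il13*, which acts on epithelium and goblet cells, was more abundant. It stood at 0.467, 0.204, 0.354, 0.382 and 0.316 CPM in the PBS libraries, at 0.633, 0.788, 0.875, 0.821 and 1.16 CPM in the isotype libraries, and at 0.298, 0.542, 0.787, 0.593 and 0.378 CPM in the anti–IL-4Rα libraries. The isotype libraries again lay above all PBS libraries, and the anti–IL-4Rα libraries ran from within the PBS range up to the isotype range. *Il13* rose in the isotype group by 1.30 (SE 0.27, adjusted p = 0.00717). Its log2 fold change with anti–IL-4Rα was -0.70 (SE 0.26, adjusted p = 0.0811), a difference that passed the test without anti–IL-4Rα replicate 3 (-0.91, adjusted p = 0.0241). Against the PBS group, *Il4* and *Il13* in the anti–IL-4Rα group had log2 fold changes of 1.33 (SE 0.44, adjusted p = 0.0961) and 0.60 (SE 0.27, adjusted p = 0.204), and neither passed.

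Markers of cells known to make these cytokines were read beside the ligands. In the isotype group all 4 tested basophil markers rose (median log2 fold change 2.31, summed level 4.81 to 6.45 CPM with PBS and 7.95 to 22.5 CPM with isotype), as did 4 of 7 mast cell markers, 3 of 8 T cell markers and 2 of 7 markers of Th2 cells and type 2 innate lymphoid cells. The other markers of these lists did not pass. With anti–IL-4Rα, 1 of 4 basophil, 1 of 7 mast cell, 0 of 8 T cell and 2 of 7 Th2 and innate lymphoid markers fell. For these and the later marker lists, the shares called among all genes stand beside the counts. They were 9.53% higher and 7.49% lower in the isotype group, and 6.73% higher and 8.13% lower with anti–IL-4Rα. T cell markers summed to 30.4 to 57.4 CPM in the isotype group and 28.9 to 58.2 CPM in the anti–IL-4Rα group. The basophil protease *Prss34* had at most 4 counts in a library. The part of these cells in the ligand levels was not tested.

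Among the receptor chains, *Il4ra* (ENSMUSG00000030748, chromosome 7, 125552120 to 125579474, plus strand), the chain that both receptors share and the antibody's target, had the largest fall of the 4 with anti–IL-4Rα. It stood at 47.6, 59.2, 83.9, 61.9 and 67.6 CPM in the PBS libraries, at 76.0, 101, 99.4, 95.7 and 164 CPM in the isotype libraries, and at 73.9, 39.9, 57.0, 48.5 and 37.4 CPM in the anti–IL-4Rα libraries. Isotype replicate 1 lay below the highest PBS library, whereas every anti–IL-4Rα library lay below every isotype library. *Il4ra* rose by 0.74 in the isotype group (SE 0.22, adjusted p = 0.0342) and fell by 1.06 with anti–IL-4Rα (SE 0.22, adjusted p = 0.0119). The rise missed the threshold without isotype replicate 2, 3 or 5 (adjusted p = 0.0567, 0.0590 and 0.0851), without PBS replicate 1, 2, 4 or 5 (adjusted p = 0.0730, 0.0752, 0.0674 and 0.0602), and in a linear model on log2(FPKM + 1) (adjusted p = 0.0637). The fall passed without any single library (log2 fold change -1.23 to -0.86). Against the PBS group the anti–IL-4Rα group differed by -0.32 (SE 0.22, adjusted p = 0.416).

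*Il13ra1* (ENSMUSG00000017057, chromosome X, 36112110 to 36171259, plus strand), the chain that pairs with IL-4Rα outside lymphocytes, changed less. It stood at 97.3, 81.6, 70.0, 78.7 and 80.3 CPM in the PBS libraries, at 78.8, 93.5, 109, 86.8 and 102 CPM in the isotype libraries, and at 63.5, 66.6, 81.8, 73.8 and 78.4 CPM in the anti–IL-4Rα libraries. Neighboring groups overlapped. In the isotype group it differed by 0.21 (SE 0.10, adjusted p = 0.175), and *Il13ra1* fell by 0.37 with anti–IL-4Rα (SE 0.10, adjusted p = 0.0305). This fall missed the threshold without isotype replicate 2, 3 or 5 (adjusted p = 0.0623, 0.0809 and 0.0663), without anti–IL-4Rα replicate 1, 2 or 4 (adjusted p = 0.0761, 0.0686 and 0.0625). It was also lost with the lacrimal gland score as a covariate (adjusted p = 0.126), in the FPKM model (0.0524) and in a fit of these 2 groups alone (0.0619). Calls over all genes became fewer in these fits too, from 1280 higher and 1546 lower in the main fit. There were 188 and 459 with the covariate, 806 and 1200 in the FPKM model, and 169 and 506 in the 2 groups alone.

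*Il2rg* (ENSMUSG00000031304, chromosome X, 101264378 to 101268255, minus strand), the common γ chain of leukocytes, stood at 11.8, 9.92, 11.7, 12.1 and 12.7 CPM in the PBS libraries, at 12.7, 21.3, 23.2, 18.2 and 29.3 CPM in the isotype libraries, and at 13.6, 14.9, 21.7, 13.8 and 13.8 CPM in the anti–IL-4Rα libraries. Isotype replicate 1 was level with the highest PBS library and the other isotype libraries lay well above. *Il2rg* rose by 0.85 in the isotype group (SE 0.19, adjusted p = 0.0100). With anti–IL-4Rα it differed by -0.43 (SE 0.19, adjusted p = 0.128), and the call was gained without isotype replicate 1 (-0.56, adjusted p = 0.0250) or anti–IL-4Rα replicate 3 (-0.58, adjusted p = 0.0323). All anti–IL-4Rα libraries lay above all PBS libraries, but the difference of 0.42 did not pass (SE 0.19, adjusted p = 0.196). General leukocyte markers moved beside it: all 5 rose in the isotype group and 0 of 5 fell with anti–IL-4Rα, and their summed level was 157 to 207 CPM with PBS, 228 to 512 CPM with isotype and 236 to 362 CPM with anti–IL-4Rα. Their part in the level of *Il2rg* was not tested. *Il2rg* overlaps a predicted gene, *Gm20489*, on the same strand, so reads could have been divided between the 2 genes.

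*Il13ra2* (ENSMUSG00000031289, chromosome X, 147383476 to 147429192, minus strand), the decoy receptor of IL-13, was lower after OVA challenge and lower again with anti–IL-4Rα. It stood at 10.5, 6.87, 8.19, 7.83 and 8.31 CPM in the PBS libraries, at 5.17, 4.54, 5.40, 6.04 and 7.58 CPM in the isotype libraries, and at 2.83, 2.67, 3.35, 3.85 and 3.99 CPM in the anti–IL-4Rα libraries. The PBS and isotype groups overlapped by isotype replicate 5, and every anti–IL-4Rα library lay below every library of both other groups. *Il13ra2* fell by 0.54 in the isotype group (SE 0.15, adjusted p = 0.0295), by 0.78 from isotype to anti–IL-4Rα (SE 0.16, adjusted p = 0.00983), and by 1.32 from PBS to anti–IL-4Rα (SE 0.16, adjusted p = 0.00262). The first of these missed the threshold without PBS replicate 1 or 5 (adjusted p = 0.0680 and 0.0552) and without isotype replicate 2 or 3 (adjusted p = 0.0713 and 0.0689). The other differences passed without any single library. Other tissue markers also fell in the isotype group: 2 of 3 markers of corneal epithelium and 6 of 7 of skeletal muscle, with 0 of either falling with anti–IL-4Rα. Conjunctival epithelium markers had medians of -0.02 and -0.21 in these comparisons, with 1 of 9 rising in the first and 1 rising and 1 falling in the second. Their part in the level of *Il13ra2* was not tested.

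**Figure D2:**
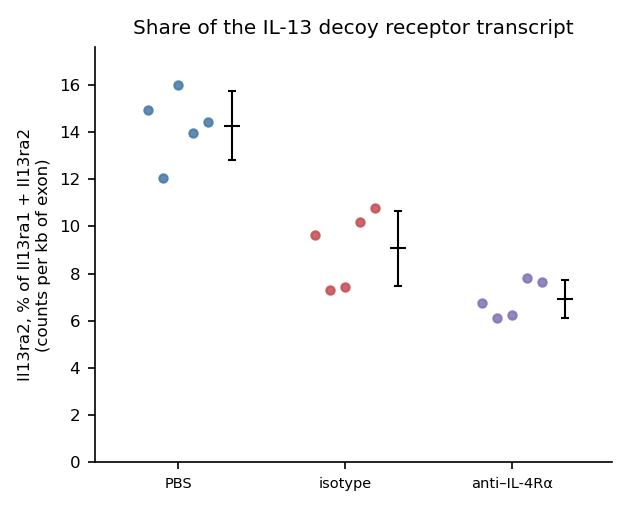
Share of *Il13ra2* in the summed *Il13ra1* and *Il13ra2* transcripts (vertical axis, percent of counts per kb of exon, linear from 0), with 1 point per library and the group mean ± SD (n = 5). PBS libraries lie at 12.1% to 16.0%, isotype libraries at 7.32% to 10.8% and anti–IL-4Rα libraries at 6.12% to 7.83%.

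The balance of the 2 IL-13 receptors was measured within each library, where depth cancels. Per kb of exon, *Il13ra2* made up 14.9%, 12.1%, 16.0%, 13.9% and 14.4% of the *Il13ra1* and *Il13ra2* transcripts in the PBS libraries, 9.65%, 7.32%, 7.44%, 10.2% and 10.8% in the isotype libraries, and 6.77%, 6.12%, 6.25%, 7.83% and 7.65% in the anti–IL-4Rα libraries. PBS libraries did not overlap with those of either other group, whereas the isotype and anti–IL-4Rα libraries did overlap. The mean share was 14.3% ± 1.46 (SD, n = 5) in the PBS group, 9.07% ± 1.60 in the isotype group and 6.93% ± 0.787 in the anti–IL-4Rα group. The difference from the PBS group was -5.20 percentage points for isotype and -7.35 for anti–IL-4Rα (exact permutation test, two-sided p = 0.00794 for each, the smallest that 252 splits can give, and 0.0119 after adjustment over 3 comparisons). The isotype and anti–IL-4Rα groups differed by -2.15 points (exact permutation test, two-sided p = 0.0476, adjusted 0.0476), and this difference missed the threshold without isotype replicate 1, 4 or 5 or without anti–IL-4Rα replicate 1, 2 or 3 (adjusted p = 0.0952 in each).

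*Stat6* (ENSMUSG00000002147, chromosome 10, 127642986 to 127660957, plus strand), the transcription factor downstream of both receptors, kept within 137 to 168 CPM in all libraries. It stood at 152, 149, 151, 142 and 141 CPM in the PBS libraries, at 150, 149, 168, 152 and 158 CPM in the isotype libraries, and at 142, 137, 156, 139 and 141 CPM in the anti–IL-4Rα libraries. The groups overlapped throughout. It differed by 0.08 in the isotype group (SE 0.05, adjusted p = 0.265) and -0.12 with anti–IL-4Rα (SE 0.05, adjusted p = 0.0893). The latter passed without anti–IL-4Rα replicate 3 (-0.15, adjusted p = 0.0208) and in DESeq2 (-0.12, adjusted p = 0.0482). STAT6 is activated by phosphorylation, which mRNA levels do not measure.

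Of the feedback inhibitors, *Socs1* and *Socs3* rose in the isotype group, and these and *Cish* fell with anti–IL-4Rα. *Socs1* (ENSMUSG00000038037, chromosome 16, 10782240 to 10785536, minus strand), which inhibits Janus kinases, stood at 6.69, 6.92, 6.63, 6.27 and 7.52 CPM in the PBS libraries, at 9.09, 16.2, 11.2, 9.36 and 13.8 CPM in the isotype libraries, and at 5.92, 5.72, 9.05, 7.09 and 6.38 CPM in the anti–IL-4Rα libraries. The isotype libraries lay above those of both other groups without overlap, by a narrow margin for anti–IL-4Rα replicate 3. *Socs1* rose by 0.81 (SE 0.16, adjusted p = 0.00647) and fell by 0.80 with anti–IL-4Rα (SE 0.16, adjusted p = 0.00993). Against the PBS group the anti–IL-4Rα group differed by 0.01 (SE 0.16, adjusted p = 0.988), a difference whose sign changed with the processing.

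*Socs3* (ENSMUSG00000053113, chromosome 11, 117966079 to 117970047, minus strand), an inhibitor of cytokine receptors of the IL-6 family, stood at 40.5, 34.1, 30.8, 32.5 and 32.4 CPM in the PBS libraries, at 41.7, 72.9, 53.6, 44.3 and 73.4 CPM in the isotype libraries, and at 24.1, 28.0, 38.1, 48.1 and 38.4 CPM in the anti–IL-4Rα libraries. The isotype libraries lay above all PBS libraries, and anti–IL-4Rα replicate 4 lay within the isotype range. *Socs3*, whose promoter window is shown above, rose by 0.75 (SE 0.19, adjusted p = 0.0199) and fell by 0.70 with anti–IL-4Rα (SE 0.19, adjusted p = 0.0315). The rise missed the threshold without isotype replicate 2 (adjusted p = 0.0513). The fall missed it without isotype replicate 2, 3 or 5 (adjusted p = 0.0813, 0.0635 and 0.0725), without anti–IL-4Rα replicate 1, 2 or 5 (adjusted p = 0.0733, 0.0715 and 0.0532). It was also lost with the lacrimal gland score as a covariate (adjusted p = 0.155), in the FPKM model (0.0512) and in a fit of these 2 groups alone (0.0841). Calls over all genes became fewer in these fits as well, as given for *Il13ra1*.

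*Cish* (ENSMUSG00000032578, chromosome 9, 107296026 to 107302784, plus strand), a SOCS-family inhibitor best known as a STAT5 target, stood at 42.0, 44.6, 40.5, 40.4 and 46.5 CPM in the PBS libraries, at 42.8, 56.8, 52.4, 47.0 and 55.0 CPM in the isotype libraries, and at 23.3, 30.3, 31.0, 32.9 and 36.0 CPM in the anti–IL-4Rα libraries. Every anti–IL-4Rα library lay below every library of both other groups. *Cish* fell by 0.73 from isotype to anti–IL-4Rα (SE 0.10, adjusted p = 0.00168), and its log2 fold change in the isotype group was 0.25 (SE 0.10, adjusted p = 0.108). That difference passed without anti–IL-4Rα replicate 1, which enters through the shared estimate of the spread (adjusted p = 0.0450). *Cish* also fell by 0.48 from PBS to anti–IL-4Rα (SE 0.10, adjusted p = 0.0302), a call that was lost without PBS replicate 1, 2 or 4 (adjusted p = 0.0717, 0.0786 and 0.0583), without anti–IL-4Rα replicate 1 or 2 (adjusted p = 0.0514 and 0.0567), and with the lacrimal gland score as a covariate (adjusted p = 0.111). With that covariate, 57 of all genes were called higher and 29 lower in this comparison, against 434 and 273 in the main fit.

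**Figure D3:**
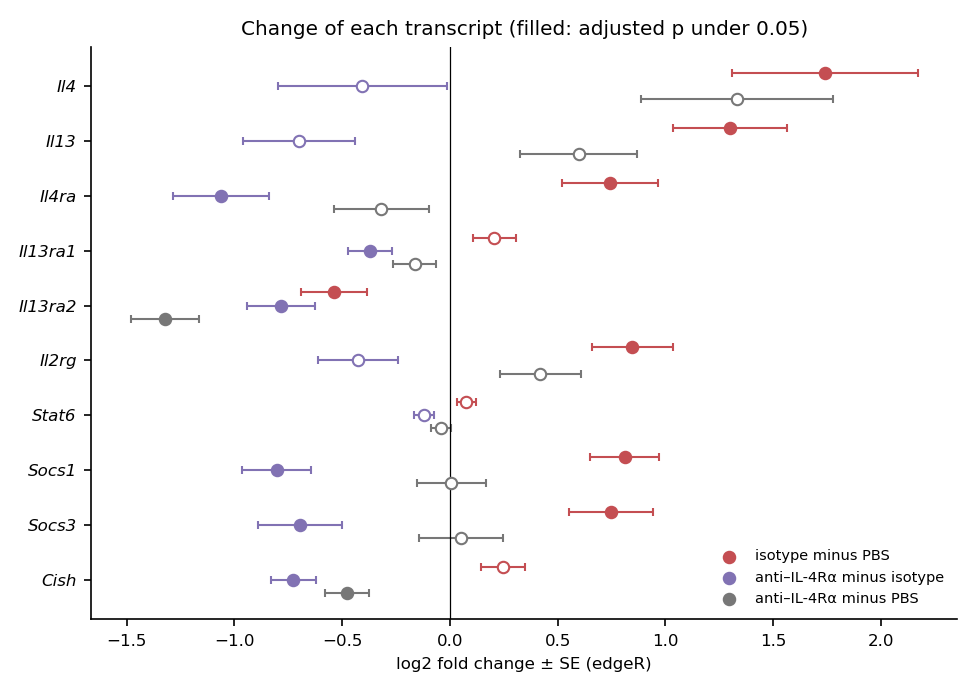
Log2 fold change of each of the 10 transcripts with its SE (horizontal axis, edgeR, 5 libraries per group), for isotype minus PBS, anti–IL-4Rα minus isotype and anti–IL-4Rα minus PBS, with filled points for adjusted p under 0.05. *Il13ra2* lies left of 0 in every comparison (-0.54, -0.78 and -1.32), and *Socs1* lies at 0.81, -0.80 and 0.01.

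Counted together, 6 of the 10 genes rose and 1 fell in the isotype group against the PBS group, where 17.0% of all genes tested were called (9.53% higher and 7.49% lower). Libraries did not overlap for 4 of the 10, all higher (*Il4*, *Il13*, *Socs1* and *Socs3*). Of all genes, 6.85% were higher and 5.43% lower without overlap. The median log2 fold change of the 10 was 0.75, against -0.01 over all genes. With anti–IL-4Rα, 0 of the 10 rose and 6 fell against isotype, where 14.9% of all genes were called (6.73% higher and 8.13% lower), and 4 were lower without overlap (*Il4ra*, *Il13ra2*, *Socs1* and *Cish*). Of all genes, 2.35% were higher and 4.96% lower without overlap. Their median was -0.70, against 0.01 over all genes. Between the anti–IL-4Rα and PBS groups 2 of the 10 fell and 0 rose, where 3.72% of all genes were called (2.28% higher and 1.44% lower), and the median was -0.02 against 0.00 over all genes. Without overlap, *Il13ra2* and *Cish* were lower (3.12% of all genes) and *Il2rg* was higher (2.98% of all genes). The first and second comparisons share the isotype libraries, and each pair of comparisons shares 1 group.

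Without isotype replicate 2 and anti–IL-4Rα replicate 3, 4 of the 10 were called in the isotype group against the PBS group in place of 7. *Il4*, *Il13*, *Il2rg* and *Socs1* passed, and *Il4ra* (adjusted p = 0.0619), *Il13ra2* (0.0781) and *Socs3* (0.0560) did not. The count was also 4 when isotype replicate 2 alone was left out. Calls over all genes became fewer too. Without the pair, 1391 of 18751 genes were called higher and 885 lower, against 1812 and 1423 of 19006 with all libraries. For anti–IL-4Rα against isotype the count became 7, as *Il13* (adjusted p = 0.0360) and *Stat6* (0.0212) passed and *Socs3* (0.0645) did not. The same 2 genes, *Il13ra2* and *Cish*, were called between anti–IL-4Rα and PBS. Over all genes, anti–IL-4Rα against isotype had 1651 calls higher and 1579 lower without the pair (1280 and 1546 with all libraries). For anti–IL-4Rα against PBS there were 1542 higher and 1021 lower (434 and 273 with all libraries).

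The rest of the pathway was described over lists of its other genes. Among all genes, 9.53% were called higher and 7.49% lower in the isotype group, and 6.73% higher and 8.13% lower with anti–IL-4Rα. Of 6 Janus kinase and IRS adaptor genes, *Jak2* was the 1 that passed: it rose by 0.50 (SE 0.11, adjusted p = 0.00947) and fell by 0.44 with anti–IL-4Rα (SE 0.11, adjusted p = 0.0222). *Jak1*, *Jak3*, *Tyk2* and the adaptors were not called in either comparison. Among other STAT genes, *Stat4* rose by 1.66 in the isotype group (adjusted p = 0.00241), *Stat2* by 0.60 and *Stat3* by 0.20. *Stat4*, known for signaling from IL-12, fell by 0.87 with anti–IL-4Rα (adjusted p = 0.0420), and *Stat2* and *Stat3* did not pass. Of 10 other SOCS genes and phosphatases, 3 rose (*Inpp5d*, which encodes the leukocyte phosphatase SHIP1, by 1.08, *Ptpn2* by 0.26 and *Ptpn1* by 0.25), and *Socs5* and *Ptpn1* fell with anti–IL-4Rα, by 0.31 and by 0.25. The median log2 fold change in the isotype group was 0.14 for the kinases and adaptors and 0.16 for the inhibitors, and with anti–IL-4Rα it was -0.03 and -0.13.

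Other cytokines and receptors that use the common γ chain gave a mixed picture. Of 8 tested, the receptor chains *Il2rb* (log2 fold change 1.40), *Il21r* (1.46) and *Il2ra* (0.93) rose in the isotype group, and *Il7* fell by 0.54. With anti–IL-4Rα, *Il7* rose by 0.49 (adjusted p = 0.0389) and no other member of the list was called. The medians were 0.45 and -0.12. Of the other genes grouped with the type 2 locus, 5 were tested: *Il10*, *Csf2*, *Rad50*, *Kif3a* and *Irf1*. *Il10*, an anti-inflammatory cytokine, rose by 3.58 (SE 0.66, adjusted p = 0.00438), from 0 to 4 counts per PBS library to 8 to 69 per isotype library. *Il5*, the eosinophil growth factor of the same locus, had at most 13 counts in a library and was not tested, and *Il3* had at most 5, while *Il9* and *Il31* had 0 counts in all 15 libraries, which allows up to 3 counts in each.

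*Socs1* and *Socs3* also respond to cytokines other than IL-4 and IL-13. Of 13 tested genes of the IL-6 family and of related cytokine and interferon receptors, 5 rose and 1 fell in the isotype group. With anti–IL-4Rα 6 fell, and the medians were 0.33 and -0.33. Among all genes, 9.53% were called higher in the first comparison and 8.13% lower in the second. The interferon gene *Ifng*, with at most 44 counts in a library, was not tested, so only the interferon receptor genes *Ifngr1* and *Ifngr2* were. *Il6* stood at 0.151, 0.0678, 0.0708, 0.0382 and 0.0703 CPM in the PBS libraries, at 0.429, 1.63, 0.858, 1.31 and 2.69 CPM in the isotype libraries, and at 0.0639, 0.542, 0.204, 0.321 and 0.260 CPM in the anti–IL-4Rα libraries. The isotype libraries lay above all PBS libraries and overlapped with anti–IL-4Rα replicate 2. *Il6* rose by 4.04 (SE 0.57, adjusted p = 0.00108) and fell by 2.29 with anti–IL-4Rα (SE 0.50, adjusted p = 0.0141). *Osm*, encoding oncostatin M, rose by 2.90 and fell by 1.82, and *Csf3r*, the G-CSF receptor of neutrophils, rose by 2.11 and fell by 1.53. *Lif* and *Osmr* rose by 0.79 and 0.33 and *Lifr* fell by 0.25 in the isotype group. With anti–IL-4Rα, *Il11* fell by 1.37, *Il22ra1* by 0.60 and *Il6ra* by 0.49. *Il11* stood at 2.04 CPM in isotype replicate 2 and at 0.415 to 1.13 CPM in the other isotype libraries. Neutrophil markers moved beside these: 3 of 5 tested rose and 2 of 5 fell with anti–IL-4Rα, and their summed level was 26.2 to 52.3 CPM with PBS, 57.9 to 114 CPM with isotype and 20.8 to 104 CPM with anti–IL-4Rα. *Csf3r* is on both lists, so its rise and its fall are counted among these markers as well. The part of these cytokines and cells in the levels of the SOCS genes was not tested.

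Genes known to respond to IL-4 and IL-13 were read beside the pathway. Of 22 genes listed, 21 were in the table and 20 were tested. In the isotype group 12 of the 20 rose and 0 fell (median log2 fold change 1.04), and with anti–IL-4Rα 11 of the 20 fell and 0 rose (median -0.91). Of all genes, 9.53% were called higher in the first comparison and 8.13% lower in the second. The list holds genes of macrophages and of IgE-producing cells, whose markers were read beside it. In the isotype group 5 of 8 macrophage markers, 4 of 5 eosinophil markers and 2 of 7 B cell and plasma cell markers (*Jchain* by 3.97 and *Mzb1* by 2.65) rose. With anti–IL-4Rα, 0, 2 and 0 of these markers fell and 0 rose, and the medians of the 3 lists were -0.31, -0.50 and 0.37. Macrophage markers summed to 459 to 485 CPM with PBS, 501 to 929 CPM with isotype and 578 to 898 CPM with anti–IL-4Rα. B cell and plasma cell markers summed to 2.85 to 6.37, 12.9 to 72.2 and 23.5 to 206 CPM in the same order. The part of these cells in the target genes was not tested. *Chil4*, a chitinase-like protein of alternatively activated macrophages and epithelium, stood at 24.2, 45.7, 308, 55.1 and 145 CPM in the isotype libraries. It had 0 to 5 counts in the PBS libraries and 0 or 1 count in the anti–IL-4Rα libraries. Against a floor of 3 counts per library, the isotype mean stood at least 1942-fold higher than the anti–IL-4Rα mean, a bound that was 1136-fold without isotype replicate 3. The immunoglobulin gene *Ighe*, the constant region of IgE, had 0 counts in all 5 PBS libraries and 34 to 397 in the isotype libraries, at least 63.8-fold higher against the same floor. In the anti–IL-4Rα group it had 1, 1, 2 and 4 counts in 4 libraries and 134 in replicate 2, and its difference from the isotype group did not pass (adjusted p = 0.130).

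*Postn*, the matrix protein periostin, was singled out after its values were seen. It stood at 337, 272, 298, 327 and 336 CPM in the PBS libraries, at 517, 666, 936, 618 and 963 CPM in the isotype libraries, and at 273, 295, 351, 267 and 337 CPM in the anti–IL-4Rα libraries. The isotype libraries stood clear of both other groups. *Postn* rose by 1.24 (SE 0.16, adjusted p = 0.000637) and fell by 1.28 with anti–IL-4Rα (SE 0.16, adjusted p = 0.000594). *Alox15*, a lipoxygenase, rose by 2.42 and fell by 2.29, *Pdcd1lg2*, the checkpoint ligand PD-L2, rose by 2.27 and fell by 2.93, and *Clca1*, a goblet cell product, rose by 2.06 and fell by 3.45. *Chil3*, a chitinase-like protein close to *Chil4*, had 0 to 5 counts in the PBS libraries, 11 to 197 in the isotype libraries and 0 to 7 in the anti–IL-4Rα libraries, and rose by 5.81 and fell by 4.95. Reads of this near-identical pair could have been divided. *Ccl17*, a chemokine for Th2 cells, fell with anti–IL-4Rα (log2 fold change of -1.88) and had not passed in the isotype group (-0.22). It stood at 2.35 CPM in isotype replicate 2 and at 0.449 to 1.01 CPM in the other isotype libraries. Between the anti–IL-4Rα and PBS groups *Batf3* and *Clec10a* were higher (0.95 and 0.69), and *Ccl17* and *Egr2* were lower (-2.10 and -0.41).

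**Figure D4:**
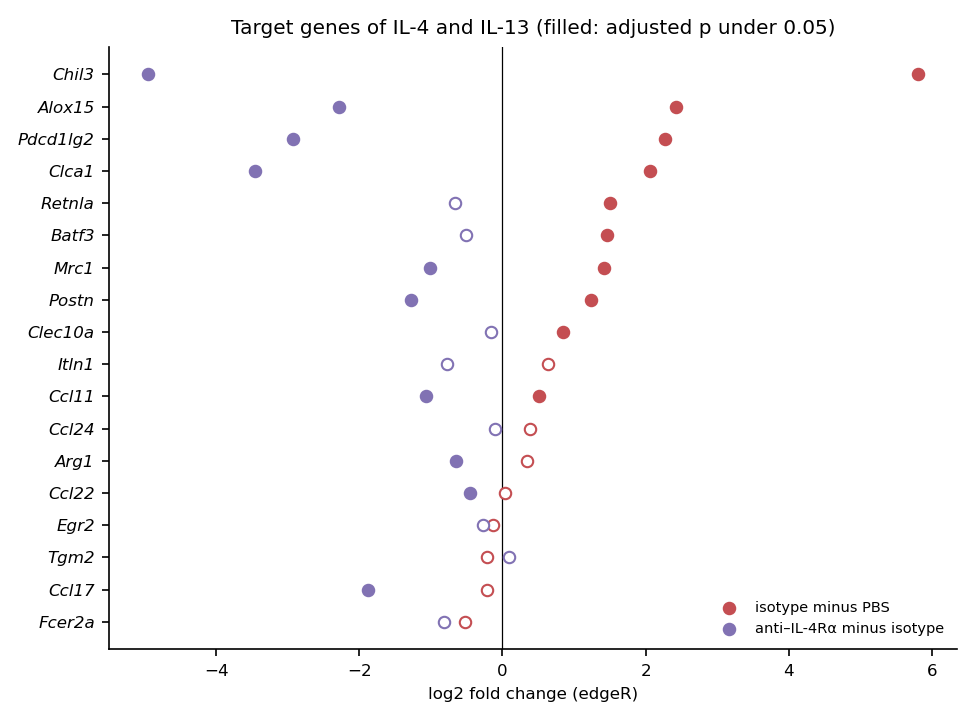
Log2 fold change (horizontal axis, edgeR, 5 libraries per group) of IL-4 and IL-13 target genes for isotype minus PBS and anti–IL-4Rα minus isotype, with filled points for adjusted p under 0.05. *Chil4* and *Ighe* are left out because a group had at most 3 counts in every library. *Pdcd1lg2* (2.27 and -2.93) and *Clca1* (2.06 and -3.45) lie far on both sides of 0, and *Ccl17* lies at -0.22 and -1.88.

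Over the 15 libraries, the transcripts most like each member were found among 15483 genes by Pearson correlation of log2 CPM, and are given with r as a description (the libraries share groups and tissue composition). *Il2rg* was most like *Spi1* (r = 0.983, and 0.974 with each group's mean removed), *Samsn1* and *Cytip*, of which *Spi1* encodes the myeloid transcription factor PU.1. *Il4* was most like *Naip5* (0.925), *Ptprc*, the pan-leukocyte CD45 gene (0.911), and *Cd6* (0.906). *Il13* was most like *Stat3* (0.926), *Osmr* and *Ikbkb*, and *Il4ra* most like *Kif1a* (0.886), *Mmp9* and *Epb41l3*. *Il13ra2* was most like *Skint8* (0.914, and 0.509 with group means removed), *H2-M5* and *Skint7*. *Cish* was most like *Exoc6b* (0.917), *Pglyrp3* and *Skint1*, and *Il13ra1* most like *3300005D01Rik* (0.969), *Smpd3* and *Adora2b*. *Stat6* was most like *Aqp3* (0.950), *Yipf1* and *Ctsh*, *Socs1* most like *Cfl1* (0.966), *Chsy1* and *Msn*, and *Socs3* most like *Gm7993* (0.937), *Ccl7* and *Gtf2f1*. With group means removed, r with the first gene named was 0.851 for *Il4*, 0.796 for *Il13*, 0.78 for *Il4ra* and 0.588 for *Cish*. It was 0.955 for *Il13ra1*, 0.934 for *Stat6*, 0.908 for *Socs1* and 0.858 for *Socs3*.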

How the data were processed

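Conjunctival RNA was prepared as stranded mRNA libraries and read in pairs. According to the methods, the authors trimmed adaptors, removed poor-quality reads and aligned the pairs to mouse build B38, keeping unique alignments, with Omicsoft Array Studio and Ensembl gene models. The values as deposited by the authors are expected counts (estimated counts per gene), neither scaled for depth nor pooled. The counting method and its use of strand are not given in the sources used here, so *Il4ra*, *Stat6* and *Cish*, which overlap genes on the opposite strand, and *Il2rg* could share reads with those. In each library 6222 to 8005 genes had values that were not whole, and all were rounded.

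Genes reaching 10 counts in 5 or more libraries entered edgeR 4.0.16 (R 4.3.3) with TMM factors and the quasi-likelihood test, in 1 model of the 3 groups, with Benjamini-Hochberg adjustment over the 19006 genes of each comparison. Each SE was derived from the F statistic. CPM uses TMM-scaled totals. Single values were compared by exact permutation tests. Positions and exon lengths are from GENCODE M21 (GRCm38), which matched 55227 gene identifiers and missed 260. Groups came from the labels, which do not say whether each library is 1 animal, so p-values measure the spread between these libraries. No pair of libraries agreed within sampling noise.

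The members and lists, and the libraries left out together, were chosen with earlier results of these data known. All members are named with every library's value. Some results for the list of other STAT genes are not reported here. From other lists, a selection of called genes is named, not strictly by size of change, with genes that were at or near 0. For each member, the 3 genes most like it with a mean of at least 1 CPM are named. Alternatives were upper quartile factors, DESeq2 1.42.0, another filter and none, a linear model on log2(FPKM + 1), the 2 groups alone, the replicate number as a block, the mean log2 level of 5 lacrimal gland markers as a covariate, and each library left out. On simulated data with a log2 fold change of 1.5, edgeR called 178 of 199 changed genes among 18851, with 9 false calls. Most changes of the members were smaller than 1.5, and detection of smaller changes was not simulated. Python 3.11.15, pandas 2.3.3, scipy 1.17.1 and matplotlib 3.10.9 were used.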

Additional observations from a re-analysis of the deposited data

Results flagged for a closer look

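Of the 33 sets of 5 libraries examined (each gene and the *Il13ra2* share in each group), 3 held a library far from the other 4, and chance gives about 1 in 20. *Il4ra* stood at 164 CPM in isotype replicate 5, where its group otherwise ran from 76.0 to 101 CPM. *Il2rg* stood at 21.7 CPM in anti–IL-4Rα replicate 3, against 13.6 to 14.9 CPM in the others, and *Stat6* stood at 156 CPM in the same library, against 137 to 142 CPM.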

How the results depend on the processing

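The changes of *Il4*, *Il13*, *Il2rg* and *Socs1* in the isotype group, and of *Il4ra*, *Il13ra2*, *Socs1* and *Cish* with anti–IL-4Rα, kept their direction and passed under every alternative run. Their size was not kept in the FPKM model, whose pseudocount of 1 shrinks changes of low genes: *Il4* rose by 0.24 and *Il13* by 0.40 there (1.74 and 1.30 in the report), and *Il13ra2* fell by 0.51 (0.78 in the report). The number of the 10 genes called was 4 to 8 for isotype against PBS (7 in the report), 4 to 9 for anti–IL-4Rα against isotype (6) and 1 to 2 for anti–IL-4Rα against PBS (2) when single libraries were left out. It was 4 for isotype against PBS without isotype replicate 2 and anti–IL-4Rα replicate 3 together, and 1 for anti–IL-4Rα against PBS with the lacrimal gland score as a covariate. The calls over all genes moved as well when single libraries were left out. They ran from 1095 to 2199 higher and 768 to 1737 lower for isotype against PBS. For anti–IL-4Rα against isotype they were 256 to 2112 and 626 to 2094, and against PBS 37 to 1301 and 40 to 728. Against PBS, several small differences of the anti–IL-4Rα group changed sign, none of them called: *Stat6* to 0.0035 with the lacrimal covariate, *Socs1* to -0.015 with upper quartile factors, -0.025 in the FPKM model, -0.118 without the pair of libraries and -0.118 to 0.064 without single libraries, and *Socs3* to -0.0093 in the FPKM model and -0.085 to 0.161 without single libraries. The cause was not tested. The difference in the *Il13ra2* share ranged from -5.75 to -4.76 points for isotype against PBS, -2.58 to -1.72 for anti–IL-4Rα against isotype and -7.90 to -6.91 for anti–IL-4Rα against PBS without single libraries.

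Same-numbered libraries of different groups did not in general deviate together (r of -0.385 to 0.454 over 15 pairs, median 0.0013, 4 of them over 0.1). No pairing by number was seen, but these correlations cannot exclude it. With the replicate number as a block, 5 and 4 genes were called in the first 2 comparisons in place of 7 and 6: *Il4ra* (adjusted p = 0.0707) and *Socs3* (0.0535) were lost for isotype against PBS, and *Il13ra1* (0.0619) and *Socs3* (0.0631) for anti–IL-4Rα against isotype. Among all genes, the block left 1308 called higher and 807 lower in the first comparison (1812 and 1423 without the block). In the second comparison it left 824 and 1035 (1280 and 1546 without the block). In the blocked test of the share, differences of -5.20, -2.15 and -7.35 points each had an adjusted p of 0.0625, the smallest that 5 pairs allow. *Il4*, at 2 to 33 counts per library, is the transcript whose precision depth limits most.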
